A study of Homo sapiens with 8 samples.

Results

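Expression of 46 genes that act in the G2 phase and in mitosis was measured in A375 cells, a human melanoma line, after knockdown of HSF1 and after treatment with an HSP90 inhibitor. The genes were the listed members of that programme, and every probe set of the array that was annotated to one of them alone was taken, which gave 91 of the 54675 probe sets. Each gene was represented by its brightest probe set, by the mean of log2 signals, so that 46 of 19775 genes were described. All 46 passed the filter on low signals, against 12672 genes that passed in all. A signal at or above the array's own median in all 8 arrays was found for 45 of them, and for INCENP, the scaffold of the chromosomal passenger complex, in 5.

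In G2 and mitosis, cyclins A and B activate the kinase CDK1, PLK1 and the aurora kinases build the spindle, kinesins and kinetochore proteins move and hold the chromosomes, and the spindle checkpoint restrains the anaphase-promoting complex until every chromosome is attached. Many of these genes share a late cell cycle peak of transcription, driven through the DREAM and MuvB complexes, B-MYB and FOXM1, which act at the CHR element, and through NF-Y, which binds CCAAT boxes. The level of these mRNAs in a dividing culture therefore also follows the share of cells that are in G2 and mitosis, and in bulk RNA fewer such cells and less RNA per cell cannot be told apart. HSF1 is the factor that turns on heat shock genes, and NVP-HSP990 inhibits HSP90, a chaperone of many kinases. The study asked whether loss of HSF1 makes cancer cells more sensitive to HSP90 inhibition and included the cell cycle among the responses it examined.

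Arrays were hybridized with RNA of 4 groups, with 2 arrays in each. They are called here shHSF1 Dox/HSP990 (Doxycycline, then NVP-HSP990), shHSF1 HSP990 (NVP-HSP990 without Doxycycline), shNTC Dox/DMSO (Doxycycline, then DMSO) and shNTC DMSO (neither). All cells carried an inducible hairpin, shHSF1 (named sh1999 in the labels) or the non-targeting control shNTC (NTC), and Doxycycline turns the hairpin on. Cells were cultured for 3 days, with 100 ng/ml Doxycycline where the title says so, and then treated with 100 nM NVP-HSP990 or with 0.1% DMSO for 3 h. One label gives Doxycycline for all lines, so the groups follow the titles. No array held shHSF1 cells in DMSO or shNTC cells under NVP-HSP990, so the inhibitor and the hairpin line cannot be told apart, and the knockdown was measured only under the inhibitor and with a single HSF1 hairpin. Nothing in the labels tells whether 2 arrays of one group stem from separate cultures. The p-values therefore measure only the spread between these arrays, which may be technical.

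The signals of HSF1 were 5.5 and 7.3 in shHSF1 Dox/HSP990 cells, against 99 and 42.5 in shHSF1 HSP990 cells, and between 36.6 and 47.9 in the 4 arrays of shNTC cells. HSPA6, an inducible HSP70 gene, had signals of 18.3 and 12.4 in shHSF1 Dox/HSP990 cells, against 1680.8 and 1328.5 in shHSF1 HSP990 cells, and between 5.1 and 15.5 in the 4 arrays of shNTC cells. The median signal of an array lay between 10.6 and 14.2, above the HSF1 signals of shHSF1 Dox/HSP990 cells. The ratio of the 3-prime to the 5-prime control signal of ACTB, a sign of RNA quality, was 10.3 and 5.63 in shHSF1 Dox/HSP990 cells, 18.9 and 8.27 in shHSF1 HSP990 cells, 4.73 and 46.8 in shNTC Dox/DMSO cells, and 6.66 and 13.7 in shNTC DMSO cells. The second array of shNTC Dox/DMSO cells therefore stood apart. Of 8 melanocyte lineage markers on the array, 4 passed the filter and were at or above the median in all arrays, against 1 of 6 hepatocyte markers, 0 of 6 colon markers and 4 of 5 fibroblast markers that passed. The pigment genes PMEL, MLANA, TYR and TYRP1 were between 0.2 and 11.7. The summed signals of the 5 fibroblast markers were 927.1 and 882.2 in shHSF1 Dox/HSP990 cells, 636.7 and 636.3 in shHSF1 HSP990 cells, 600.2 and 490.3 in shNTC Dox/DMSO cells, and 613.8 and 599.8 in shNTC DMSO cells. Most of that sum was LUM (lumican), which was called higher in shHSF1 Dox/HSP990 cells than in shHSF1 HSP990 cells (log2 difference 0.71, adjusted p = 0.0385) and than in shNTC Dox/DMSO cells (0.80, adjusted p = 0.0153), while COL3A1 was between 0.3 and 8.9. The 1 hepatocyte marker that passed, SERPINA1, had 26.3 and 9 in shHSF1 Dox/HSP990 cells, against 65.7 and 63.2 in shNTC Dox/DMSO cells, and was called lower there (-1.31, adjusted p = 0.0381), while ALB was between 2.4 and 4.3. The part of these markers in the results was not tested.

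The promoters of 4 genes are shown first, because these genes had the lowest fitted knockdown differences of the 46. RefSeq windows of 300 bases, with 250 bases before the start of the gene and 50 after it, were matched for 38 of the 46 genes. Not matched were AURKA, BUB3, TTK, BIRC5, TPX2, UBE2C, FOXM1 and PBK. Capitals mark TTTGAA and TTTAAA, the letters of the CHR element, and CCAAT, each also where it stands on the other strand (TTCAAA and ATTGG), and each sequence runs 5′ to 3′ on the strand of its gene.
KIF14, GRCh38.p14 chr1:200620702-200621001, strand -: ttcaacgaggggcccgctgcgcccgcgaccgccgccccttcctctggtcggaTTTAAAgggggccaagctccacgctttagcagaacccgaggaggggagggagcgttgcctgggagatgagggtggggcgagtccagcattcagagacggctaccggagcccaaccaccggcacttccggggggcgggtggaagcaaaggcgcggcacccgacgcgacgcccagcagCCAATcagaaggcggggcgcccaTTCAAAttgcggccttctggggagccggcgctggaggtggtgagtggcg
CCNB2, GRCh38.p14 chr15:59104896-59105195, strand +: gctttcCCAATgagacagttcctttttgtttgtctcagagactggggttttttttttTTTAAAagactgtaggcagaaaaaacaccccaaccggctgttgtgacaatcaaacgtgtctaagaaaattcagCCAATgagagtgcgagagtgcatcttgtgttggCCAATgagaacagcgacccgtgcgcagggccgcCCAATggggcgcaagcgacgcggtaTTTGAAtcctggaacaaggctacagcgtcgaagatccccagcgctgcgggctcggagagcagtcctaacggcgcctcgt
KIF20A, GRCh38.p14 chr5:138178862-138179161, strand +: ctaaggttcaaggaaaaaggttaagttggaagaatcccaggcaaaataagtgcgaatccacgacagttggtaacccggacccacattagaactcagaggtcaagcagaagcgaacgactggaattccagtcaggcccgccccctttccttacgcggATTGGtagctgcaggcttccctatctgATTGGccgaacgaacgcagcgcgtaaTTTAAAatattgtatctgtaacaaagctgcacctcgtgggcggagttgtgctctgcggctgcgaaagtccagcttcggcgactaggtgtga
NUSAP1, GRCh38.p14 chr15:41332631-41332930, strand +: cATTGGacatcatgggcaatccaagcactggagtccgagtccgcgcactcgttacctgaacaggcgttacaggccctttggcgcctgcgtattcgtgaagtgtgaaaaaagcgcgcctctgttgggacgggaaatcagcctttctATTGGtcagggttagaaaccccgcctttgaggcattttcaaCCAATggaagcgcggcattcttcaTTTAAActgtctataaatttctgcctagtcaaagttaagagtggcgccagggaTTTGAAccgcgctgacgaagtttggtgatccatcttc
TTTGAA or TTTAAA stood in 31 of the 38 windows (81.6%), against 24.3% of 27305 promoter windows of the same length, and CCAAT in 30 of them (78.9%), against 35.7%. TTTGAA was found in 26 (68.4%, against 15.4% of all windows) and TTTAAA in 14 (36.8%, against 12.3%). Matches on both strands were counted, overlaps were allowed, and a window could hold several motifs. The window of CCNB2 held 4 CCAAT boxes, at positions -244, -120, -87 and -54 from the first transcribed base, and TTTGAA at -29. In KIF20A, CCAAT stood at -94 and -67 and TTTAAA at -41. In NUSAP1, CCAAT stood at -249, -105 and -64, TTTAAA at -40 and TTTGAA at 14. The KIF14 window had 1 CCAAT at -22, TTTAAA at -198 and TTTGAA at 2. The motif of HSF1, the heat shock element, was searched as a run of 3 units, GAA and TTC in alternation and 2 bases apart, and was found in 0 of the 38 windows, against 0.487% of all windows. At so low a share, 38 windows are too few for a count of 0 to show that these genes lack the element. All of these motif counts are matches of letters in a short window and not measured binding sites.

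When HSF1 was knocked down under the inhibitor, most of the 46 genes had slightly lower signals, and 1 of them passed the test. The fitted difference between shHSF1 Dox/HSP990 cells and shHSF1 HSP990 cells, on the log2(signal + 16) scale, was below 0 for 34 of the 46 genes, and 49.8% of all genes tested were below 0. Its median was -0.17 over the 46 genes and 0.0015 over all genes, and it ranged from -0.76 for KIF14 to 0.53 for UBE2S. This comparison is also one of Doxycycline with none. Doxycycline alone, in shNTC cells in DMSO, put 32 of the 46 genes below 0, against 51.5% of all genes tested. The median there was -0.10, and its direction rested on 1 array. KIF14 fell (limma, two-sided, Benjamini-Hochberg over all genes tested, adjusted p under 0.05), and none of the others was called, so that 1 of 46 genes was called lower, against 1.85% of all genes tested. Called higher were 0 of 46, against 0.994% of all genes. At an unadjusted p under 0.05, 8 of the 46 genes were lower, against 8.83% of all genes, and 0 were higher, against 6.5%. The methods' t-test, run on the same values, gave 8 lower and 2 higher genes before adjustment, against 6.04% and 5.11% of all genes, and 0 after it. The 46 genes are transcribed together through the cell cycle and are not independent observations.

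**Figure D1:**
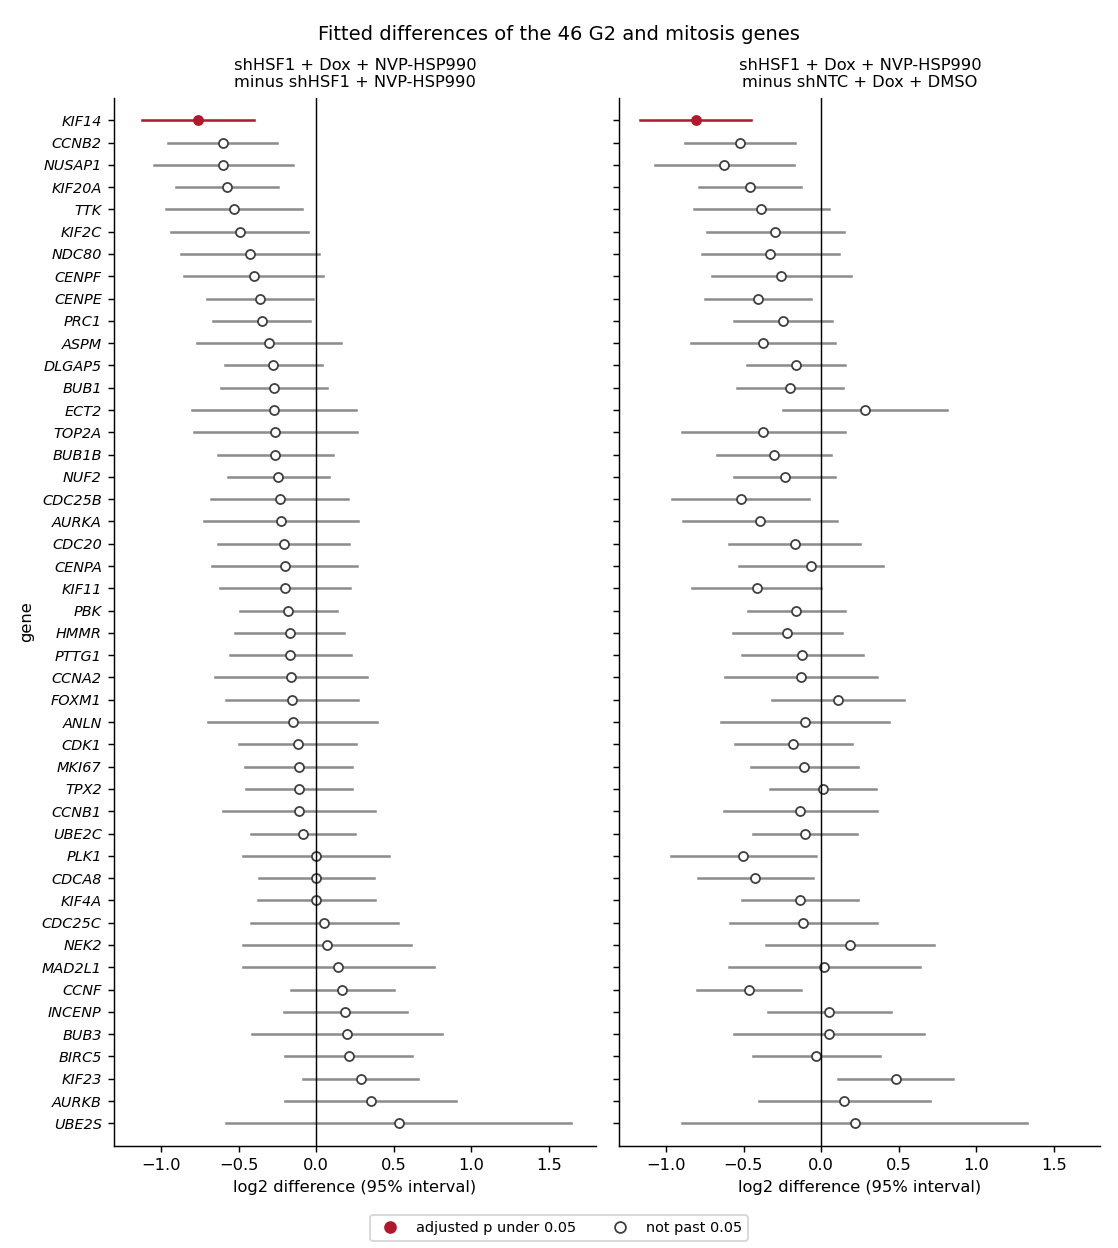
Fitted log2 differences (x axis, log2(signal + 16) scale) of the 46 G2 and mitosis genes (rows, ordered by the left panel), with 95% intervals from limma. The left panel gives shHSF1 Dox/HSP990 cells minus shHSF1 HSP990 cells, the right panel the same cells minus shNTC Dox/DMSO cells; the filled point in each panel is KIF14, the only gene past an adjusted p of 0.05, at -0.76 and -0.81.

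The arrays of shHSF1 Dox/HSP990 cells lay at the low end for many of the genes. Both were below both arrays of shHSF1 HSP990 cells for 25 of the 46 genes, and 21.8% of all genes tested had this order. Both were below all 6 other arrays for 17 genes (37.0%), against 11.5% of all genes, and above all 6 for 0, against 11.1%, a count made after the values were seen. The 17 were ASPM, AURKA, BUB1, BUB1B, CCNB2, CDC25B, CENPE, DLGAP5, HMMR, KIF11, KIF14, KIF20A, NUF2, NUSAP1, PBK, PRC1 and TTK. They came from the cyclin and CDC25 genes, the mitotic kinases, the checkpoint and kinetochore genes, the kinesins and the spindle proteins.

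**Figure D2:**
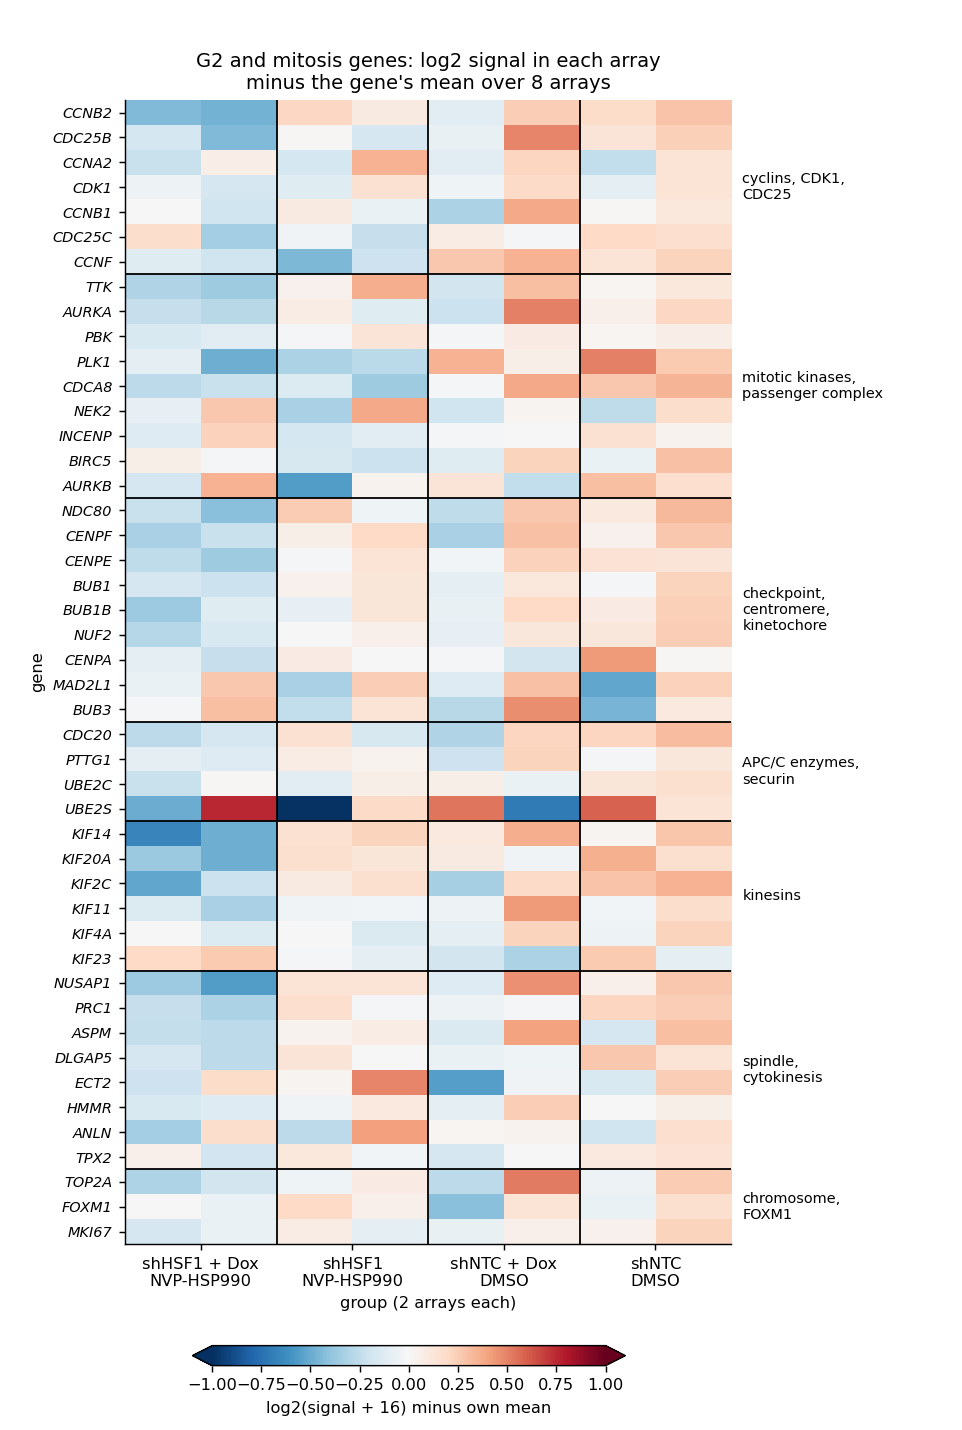
Log2(signal + 16) of each of the 46 genes (rows, grouped by role and within a role by the knockdown difference) in each of the 8 arrays (columns, 2 per group) minus the gene's own mean over the 8 arrays, with red above and blue below that mean. The 2 columns of shHSF1 Dox/HSP990 cells are mostly blue, with 41 and 35 of 46 genes below their own mean, against 24 and 18 in shHSF1 HSP990 cells, 37 and 11 in shNTC Dox/DMSO cells, and 15 and 1 in shNTC DMSO cells.

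Single arrays also differed within groups. The median of the 46 genes' deviations from their own means was -0.17 and -0.19 in the arrays of shHSF1 Dox/HSP990 cells, -0.0061 and 0.057 in shHSF1 HSP990 cells, -0.092 and 0.21 in shNTC Dox/DMSO cells, and 0.053 and 0.19 in shNTC DMSO cells. Over all genes tested the same median stayed between -0.026 and 0.013. The arrays of shNTC Dox/DMSO cells were the pair furthest apart, and the second of them is the one with the ACTB ratio of 46.8. In all 4 groups, 11 of the 46 genes were higher in the array with the higher ACTB ratio of its group and 2 were lower in it, against 10.5% and 10.3% of all genes. With the ACTB ratio of each array as a covariate, added after seeing the data, the knockdown median of the 46 genes was -0.12 and KIF14 remained the 1 gene called.

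KIF14 is a kinesin of the central spindle that is needed for cytokinesis, and it was the gene that fell most among the 46. Its signals were 702.5 and 793.6 in shHSF1 Dox/HSP990 cells, 1248.3 and 1307.7 in shHSF1 HSP990 cells, 1203.1 and 1446.7 in shNTC Dox/DMSO cells, and 1144.4 and 1363.1 in shNTC DMSO cells. The first group was below the 6 other arrays, which did not separate by group. The knockdown difference was -0.76 (SE 0.16, 95% interval -1.12 to -0.40, adjusted p = 0.0356). With the ACTB ratio as a covariate it was -0.72 (adjusted p = 0.0477). The call was kept in 10 of 23 alternatives, quantile normalization among them, and lost in 13. It was also kept with the replicate number as a block (limma, adjusted p = 0.0089). No label says whether arrays with the same number were handled together, and the main fit holds no such block. The call was lost with no filter on low signals (adjusted p = 0.0677), with arrays centred on their medians (0.0696), with the probe sets of a gene averaged (-0.66, 0.0753), with no trend in the variances (0.0541), with only the 4 compared arrays (0.0765) and by the adjusted t-test (0.345). It also rested on each array of 3 groups. The adjusted p was 0.169 and 0.114 without the first and the second array of shHSF1 Dox/HSP990 cells, 0.128 and 0.125 without those of shHSF1 HSP990 cells, and 0.0678 and 0.0684 without those of shNTC DMSO cells. The second probe set of KIF14 had signals of 95.4 and 110.6 in shHSF1 Dox/HSP990 cells, against 118.6 and 212.4 in shHSF1 HSP990 cells, a difference of -0.56 (adjusted p = 0.352, all probe sets tested singly).

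Among the other kinesins, KIF20A, which carries the passenger complex to the central spindle, had signals of 406.1 and 373.9 in shHSF1 Dox/HSP990 cells, 594.9 and 579.8 in shHSF1 HSP990 cells, 566.1 and 518.5 in shNTC Dox/DMSO cells, and 684.9 and 596.3 in shNTC DMSO cells. The first group lay below the 6 other arrays, and the knockdown difference of -0.57 (SE 0.15) had an adjusted p of 0.0732. KIF2C, which takes apart microtubule ends at the centromere, was at -0.49 (adjusted p = 0.263). KIF11, the motor that pushes the spindle poles apart, had 1899 and 1660.5 in shHSF1 Dox/HSP990 cells, against 2037.2 and 2049.6 in shHSF1 HSP990 cells, and 2008.5 and 2805.7 in shNTC Dox/DMSO cells, against 2047.8 and 2361.1 in shNTC DMSO cells. Its difference in the knockdown comparison was -0.20 (95% interval -0.62 to 0.22). KIF4A, a motor of chromosome arms, was at 0.0019 (interval -0.37 to 0.38). KIF23, the motor of centralspindlin, ran the other way, with 446.4 and 468 in shHSF1 Dox/HSP990 cells, against 381.3 and 361.9 in shHSF1 HSP990 cells (0.29, interval -0.08 to 0.66). The kinesins as a group had 1 of 6 called lower, against 1.85% of all genes tested, and a median of -0.35.

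**Figure D3:**
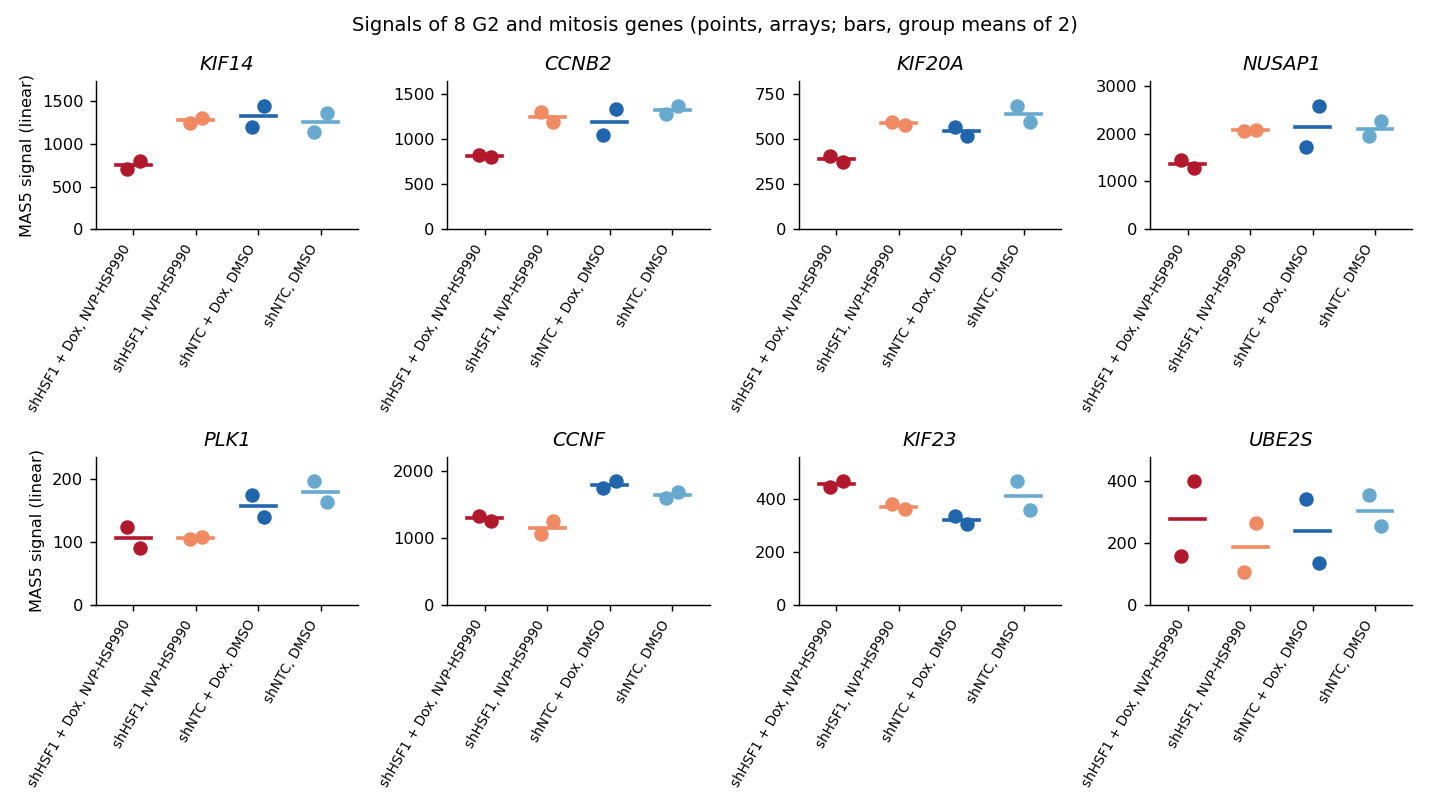
MAS5 signals (y axes, linear, starting at 0) of 8 of the genes in the 4 groups (x axes; points are arrays, bars the mean of 2). KIF14, CCNB2, KIF20A and NUSAP1 are lowest in both arrays of shHSF1 Dox/HSP990 cells, PLK1 and CCNF are lower in all 4 arrays with NVP-HSP990 than in the 4 with DMSO, KIF23 is highest by its mean in shHSF1 Dox/HSP990 cells, and the arrays of UBE2S spread widely within every group.

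The cyclins and the activators of CDK1 did not move as a block. CCNB2, a B-type cyclin, had signals of 821.5 and 803.3 in shHSF1 Dox/HSP990 cells, 1296.3 and 1188.8 in shHSF1 HSP990 cells, 1040.1 and 1326.7 in shNTC Dox/DMSO cells, and 1274.8 and 1366.7 in shNTC DMSO cells. The groups did not overlap in the knockdown comparison, where the difference was -0.60 (SE 0.16, interval -0.95 to -0.25), and the adjusted p of 0.0772 missed the threshold. CCNB1, the main mitotic cyclin, had 2776.5 and 2415.1 in shHSF1 Dox/HSP990 cells, 2955.2 and 2648.4 in shHSF1 HSP990 cells, 2234.1 and 3620.7 in shNTC Dox/DMSO cells, and 2801.2 and 2989.5 in shNTC DMSO cells. CCNB1 overlapped between the groups in all 4 comparisons, its knockdown difference was -0.11 (interval -0.60 to 0.38), and with the ACTB ratio as a covariate it was 0.027. CDK1 itself was at -0.12 (interval -0.50 to 0.26), CCNA2 at -0.16, CDC25B, a phosphatase that activates CDK1, at -0.23, CDC25C at 0.052 and CCNF, an F-box protein that limits cyclin-dependent events in G2, at 0.17. Of the 7 genes, 0 were called in the knockdown comparison and 1, CCNB2, was lower at an unadjusted p under 0.05, against 8.83% of all genes.

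Of the 9 mitotic kinases and passenger complex genes, 0 were called, and the median knockdown difference was 0.00095. TTK, the kinase that starts the spindle checkpoint, had the lowest value, -0.53 (SE 0.20, adjusted p = 0.217). Its signals were 249.5 and 239.6 in shHSF1 Dox/HSP990 cells, 319.4 and 404.9 in shHSF1 HSP990 cells, 272.2 and 385.2 in shNTC Dox/DMSO cells, and 314.9 and 335.8 in shNTC DMSO cells, so that the first group again lay below the 6 other arrays. AURKA, the kinase of the spindle poles, had 2347 and 2272.7 in shHSF1 Dox/HSP990 cells, 2891.4 and 2535.8 in shHSF1 HSP990 cells, 2371.3 and 3907.4 in shNTC Dox/DMSO cells, and 2859.9 and 3182.5 in shNTC DMSO cells. The first group was lowest here too, but by little against the first array of shNTC Dox/DMSO cells, and the difference was -0.23 (interval -0.73 to 0.27). PLK1 and CDCA8 (borealin, a passenger complex subunit) were at -0.00068 and 0.00095, and AURKB, the kinase of that complex, at 0.35 (interval -0.20 to 0.90). The mitotic kinases PBK and NEK2 were at -0.18 and 0.069, and the passenger subunits BIRC5 (survivin) and INCENP at 0.21 and 0.19. The dimmer probe sets of BIRC5 were between -0.25 and -0.019, so its probe sets disagreed in sign.

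At the kinetochore the signals were lower after the knockdown for 7 of 9 genes, without overlap between the groups, against 21.8% of all genes tested, and 0 of 9 were called (median -0.26). NDC80, the subunit of the NDC80 complex that binds microtubules, had 641.9 and 557.4 in shHSF1 Dox/HSP990 cells, 900 and 727.7 in shHSF1 HSP990 cells, 627.1 and 907.5 in shNTC Dox/DMSO cells, and 806.9 and 944.2 in shNTC DMSO cells. Its difference was -0.43 (interval -0.87 to 0.016), and the first array of shNTC Dox/DMSO cells was within the range of the lowest group. CENPF, a kinetochore protein of G2 and mitosis, was at -0.40 (interval -0.85 to 0.044), CENPE, the kinesin of the kinetochore, at -0.36 (adjusted p = 0.295), and the checkpoint genes BUB1 and BUB1B at -0.27 and -0.26. NUF2, a subunit of the NDC80 complex, was at -0.24, CENPA, the histone of the centromere, at -0.20 and MAD2L1 at 0.14. BUB3, the partner of BUB1 and BUB1B, had 2570.7 and 3182.8 in shHSF1 Dox/HSP990 cells, 2178 and 2848.9 in shHSF1 HSP990 cells, 2127.3 and 3584.9 in shNTC Dox/DMSO cells, and 1873.4 and 2770.2 in shNTC DMSO cells. For BUB3 the second array was the higher one in each group, by 0.31 to 0.75 on the log2 scale, and the groups overlapped (0.20, interval -0.41 to 0.81). In all 4 groups, 14 of the 46 genes were higher in the second array and 3 were lower in it, against 12.6% and 16.7% of all genes.

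Among the enzymes and targets of the anaphase-promoting complex, 0 of 4 genes were called. PTTG1, the securin that holds back separase, had 2070.4 and 2017.3 in shHSF1 Dox/HSP990 cells, 2329.1 and 2260.7 in shHSF1 HSP990 cells, 1913.9 and 2584.8 in shNTC Dox/DMSO cells, and 2175.1 and 2390.8 in shNTC DMSO cells. The knockdown difference of PTTG1 was small, -0.17, beside an interval of -0.56 to 0.22. CDC20, an activator of the complex, was at -0.21 and UBE2C, its first ubiquitin-conjugating enzyme, at -0.083. UBE2S, the enzyme that extends the ubiquitin chains, had the widest spread of the 46, with 158.4 and 398.2 in shHSF1 Dox/HSP990 cells, 107.6 and 264.1 in shHSF1 HSP990 cells, 340.3 and 134.3 in shNTC Dox/DMSO cells, and 353.1 and 254.1 in shNTC DMSO cells. In each of the 4 groups its lower signal was in the array with the higher ACTB ratio. The difference of 0.53 for UBE2S had an interval of -0.58 to 1.64, and it was -0.093 without the second array of shHSF1 Dox/HSP990 cells and -0.060 without the first array of shHSF1 HSP990 cells.

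All 8 spindle and cytokinesis genes had fitted differences below 0 in the knockdown comparison, between -0.60 and -0.11 with a median of -0.27, and 0 were called. NUSAP1, which bundles spindle microtubules near the chromosomes, had 1451.8 and 1271.3 in shHSF1 Dox/HSP990 cells, 2063.7 and 2068.7 in shHSF1 HSP990 cells, 1709.9 and 2582.8 in shNTC Dox/DMSO cells, and 1945.1 and 2259.6 in shNTC DMSO cells. Both arrays of the first group were below the 6 others, and the difference was -0.60 (SE 0.20, adjusted p = 0.171). PRC1, which bundles the microtubules of the central spindle, was at -0.35 (interval -0.67 to -0.038, adjusted p = 0.261), ASPM at -0.31, DLGAP5 at -0.28, HMMR at -0.17 and TPX2, which activates AURKA, at -0.11. ECT2, the exchange factor that activates RhoA for cytokinesis, and ANLN, the anillin of the contractile ring, were at -0.27 and -0.15 with overlapping groups. Of the remaining 3 genes, TOP2A, the topoisomerase that untangles sister chromosomes, had 1657.5 and 1802.1 in shHSF1 Dox/HSP990 cells, 1990.2 and 2171.7 in shHSF1 HSP990 cells, 1707.1 and 2945.4 in shNTC Dox/DMSO cells, and 1981.2 and 2457.7 in shNTC DMSO cells. Its difference was -0.26 (interval -0.79 to 0.26), while FOXM1, the transcription factor of this programme, was at -0.15 and MKI67, the proliferation marker Ki-67, at -0.11.

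The 95% interval of the knockdown difference stayed within 2-fold in either direction for 43 of the 46 genes, and 10954 of the 12672 genes did so. The 3 exceptions were KIF14, NUSAP1 and UBE2S. The median half-width of the intervals was 0.42 on the log2 scale, so most differences of the size seen here were not detectable with 2 arrays a group.

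Against shNTC Dox/DMSO cells, which received neither an HSF1 hairpin nor the inhibitor, the cells with both again had KIF14 as the only call. The fitted difference was below 0 for 36 of 46 genes (48.2% of all genes tested), with a median of -0.17 against 0.014 over all genes. Called lower was 1 gene, against 2.99% of all genes, and called higher were 0, against 2.84%. At an unadjusted p under 0.05, 9 genes were lower (9.52% of all genes) and 1, KIF23, was higher (9.98%). By the methods' t-test before adjustment 4 were lower and 1 was higher, against 4.77% and 5.76% of all genes, and 0 after adjustment. The arrays did not overlap and were lower for 21 genes, against 20.9% of all genes. This comparison shares the arrays of shHSF1 Dox/HSP990 cells with the knockdown comparison, so the values of the 2 comparisons are not independent.

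The difference of KIF14 was -0.81 in this comparison (SE 0.16, interval -1.17 to -0.45, adjusted p = 0.0174). Without the first or the second array of shHSF1 Dox/HSP990 cells the adjusted p was 0.101 and 0.0624, and without the second array of shNTC Dox/DMSO cells it was 0.0845. NUSAP1 was at -0.62 (adjusted p = 0.112), CCNB2 at -0.52 (0.0902), CDC25B at -0.52 (0.178), PLK1 at -0.50 (0.225), CCNF at -0.46 (0.112) and KIF20A at -0.46 (0.112). KIF23 had 446.4 and 468 in shHSF1 Dox/HSP990 cells, against 338.7 and 308.4 in shNTC Dox/DMSO cells, a difference of 0.48 with an adjusted p of 0.138. The median of the 46 genes turned on 1 library, since it was -0.33 without the first array of shNTC Dox/DMSO cells and -0.081 without the second, and the count called lower was 6 and 0.

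**Figure D4:**
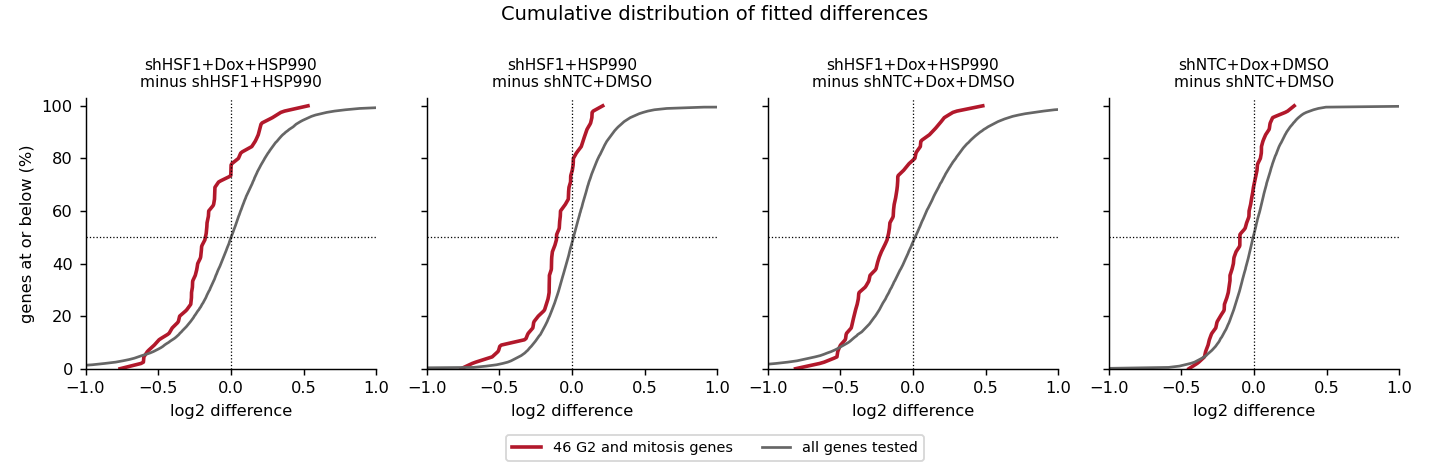
Cumulative share of genes (y axis, %) at or below a fitted log2 difference (x axis) for the 46 G2 and mitosis genes (red) and for all 12672 genes tested (grey), in the 4 comparisons between groups; the x axis is cut at -1 and 1. The red curve crosses 50% at -0.17, -0.11, -0.17 and -0.10 from left to right, and the grey curve at 0.0015, 0.0096, 0.014 and -0.0064.

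In shHSF1 HSP990 cells set against shNTC DMSO cells, 0 of the 46 genes were called, against 0.221% of all genes tested. At an unadjusted p under 0.05 there were 3, all lower, against 4.96% of all genes, and the methods' t-test gave 2 lower and 0 higher genes before adjustment, against 2.49% and 3.03%. Fitted differences were below 0 for 34 genes (47.8% of all), with a median of -0.11 against 0.0096, and the arrays did not overlap and were lower for 15 genes, against 15.6% of all genes. The 3 genes were PLK1, CCNF and CDCA8. PLK1 had 104.5 and 108.2 in shHSF1 HSP990 cells, against 196.8 and 163.9 in shNTC DMSO cells, and 124 and 90.8 in shHSF1 Dox/HSP990 cells, against 175.3 and 140.4 in shNTC Dox/DMSO cells. CCNF had 1059.1 and 1250.8 in shHSF1 HSP990 cells, against 1591.7 and 1692.5 in shNTC DMSO cells, and 1333.1 and 1260.6 in shHSF1 Dox/HSP990 cells, against 1746.7 and 1844.8 in shNTC Dox/DMSO cells. CDCA8 had 705.9 and 605.7 in shHSF1 HSP990 cells, against 942.9 and 987.1 in shNTC DMSO cells, and 644 and 664.9 in shHSF1 Dox/HSP990 cells, against 768.1 and 1016 in shNTC Dox/DMSO cells. By the brightest probe sets, these 3 were the genes of the 46 (6.52%) whose 4 arrays with NVP-HSP990 were all below the 4 with DMSO, against 2.9% of all genes, and 0 were above them, against 3.89%, counted after the values were seen. A dimmer probe set of BIRC5 had this order too, with signals of 359.1 to 448.3 under NVP-HSP990 and 513.2 to 683.9 in DMSO. It was at -0.71 without Doxycycline (limma, adjusted p = 0.384, all probe sets tested singly), and the other probe sets of BIRC5 were between -0.30 and 0.034. Among those others, the probe set at -0.21 also had the order, with 1705 to 1769.2 under NVP-HSP990 and 1864.7 to 2261.9 in DMSO. A dimmer probe set of CDC25C had the order by a narrow margin. The dimmer probe set of CCNF had it at low signals, 4.6 to 11.9 under NVP-HSP990 and 12.9 to 18.6 in DMSO. The differences without Doxycycline were -0.68 (SE 0.21, adjusted p = 0.574) for PLK1, -0.51 (SE 0.15, adjusted p = 0.529) for CCNF and -0.55 (SE 0.17, adjusted p = 0.562) for CDCA8, and the knockdown differences of the same genes were -0.00068, 0.17 and 0.00095.

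Doxycycline alone, in shNTC Dox/DMSO cells against shNTC DMSO cells, gave 0 calls among the 46 genes and 0% of all genes tested. At an unadjusted p under 0.05 there were 0 of the 46, against 2.41% of all genes, and the methods' t-test gave 1 lower and 0 higher before adjustment, against 3% and 1.64% of all genes. Fitted differences were below 0 for 32 genes (51.5% of all genes), the median was -0.10, and the arrays did not overlap and were lower for 13 genes, against 16.7% of all. That median was 0.058 without the first array of shNTC Dox/DMSO cells and -0.22 without the second, so its direction rested on 1 array. UBE2S was at -0.45, KIF2C at -0.39 (unadjusted p = 0.0799) and BUB3 at 0.28.

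The interaction is the knockdown difference minus the Doxycycline difference of shNTC cells in DMSO. It tests whether the difference with Doxycycline is unlike between these 2 settings. The settings differ in hairpin line and in inhibitor at once, so the interaction cannot separate the knockdown from these. Called were 0 of the 46, against 0.789% of all genes tested. At an unadjusted p under 0.05 there were 2, KIF14 lower (-0.84, SE 0.23, interval -1.35 to -0.33, adjusted p = 0.159) and KIF23 higher (0.62, SE 0.24, adjusted p = 0.358), against 10.6% of all genes. NUSAP1 and CCNB2 were at -0.60 and -0.44 (adjusted p = 0.505 and 0.557). The interaction was below 0 for 28 of the 46 genes, against 6296 of the 12672 genes tested. Over the 46 genes the median was -0.088, and it was -0.26 without the first and 0.059 without the second array of shNTC Dox/DMSO cells, and 0.020 with the ACTB ratio as a covariate.

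Of the 46 genes, 24 had several probe sets on the array and 23 had more than 1 that passed the filter, 86 probe sets in all. When each probe set was tested singly, 2 of the 86 were called lower in the knockdown comparison (1.34% of 24631 probe sets) and 2 in the comparison with shNTC Dox/DMSO cells (2.14%). All probe sets of a gene had the same sign in 15 of the 23 genes in the knockdown comparison. In the knockdown comparison the calls were KIF14 (-0.76, adjusted p = 0.0499) and the dimmest probe set of MAD2L1, a checkpoint protein that binds CDC20. That probe set had 79 and 85.5 in shHSF1 Dox/HSP990 cells, 218.1 and 172.1 in shHSF1 HSP990 cells, 132.3 and 146.9 in shNTC Dox/DMSO cells, and 185.6 and 156.1 in shNTC DMSO cells (-1.10, adjusted p = 0.0198). The brightest probe set had 1988.1 and 2521.2 in shHSF1 Dox/HSP990 cells, against 1660 and 2471.4 in shHSF1 HSP990 cells (0.14), and the third was at 0.35, so the probe sets of MAD2L1 disagreed in sign. Against shNTC Dox/DMSO cells the calls were KIF14 and the second probe set of NUSAP1, with 310.1 and 237 in shHSF1 Dox/HSP990 cells and 578.5 and 811.9 in shNTC Dox/DMSO cells (-1.29, adjusted p = 0.0149), and was at -0.99 in the knockdown comparison (adjusted p = 0.0651). Both probe sets of NUSAP1 had the same sign.

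**Figure D5:**
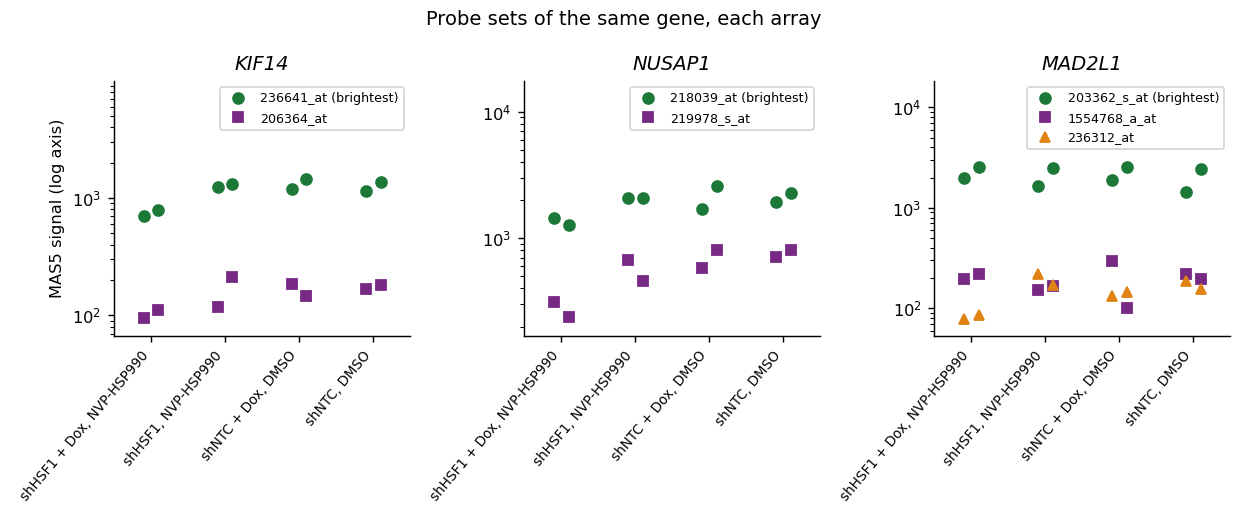
MAS5 signals (y axis, log scale) of every tested probe set of KIF14, NUSAP1 and MAD2L1 in each array (x axis, 4 groups of 2 arrays); colours and shapes mark the probe sets, and the brightest stands for the gene. Both probe sets of KIF14 and of NUSAP1 are lowest in shHSF1 Dox/HSP990 cells, while of the 3 probe sets of MAD2L1 only the dimmest, drawn as triangles, is lowest there, at 79 and 85.5.

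Other genes of G2 and mitosis outside the 46 were read from a list of 66, of which 65 were on the array and were tested. In the knockdown comparison 4 were called lower, against 1.85% of all genes tested, and 0 higher, against 0.994%. Below 0 were 54 of 65, against 49.8% of all genes, and the median was -0.17. CKAP2L, a spindle protein of neural progenitors and other dividing cells, had 173.4 and 202 in shHSF1 Dox/HSP990 cells, against 504.9 and 479.4 in shHSF1 HSP990 cells, and between 581.5 and 747.7 in shNTC cells (-1.32, SE 0.17, adjusted p = 0.00287). KIF20B, a kinesin of cytokinesis, had 477 and 456.6 in shHSF1 Dox/HSP990 cells, against 915.5 and 957.2 in shHSF1 HSP990 cells (-0.98, adjusted p = 0.00434). A second, dim probe set of KIF20B, with signals between 4.8 and 13.2, was at -0.016, and with the 2 averaged KIF20B was at -0.20 and was not called (adjusted p = 0.478). FAM83D, which brings a casein kinase to the spindle, and NCAPH, a condensin subunit, were at -0.91 each (adjusted p = 0.0343 and 0.0356). CKAP2L and, by its bright probe set, KIF20B stayed called whichever 1 array was left out. FAM83D was not called without the first or second array of shHSF1 Dox/HSP990 cells (adjusted p = 0.0791 and 0.186), the first of shHSF1 HSP990 cells (0.187) and the first or second of shNTC DMSO cells (0.0597 and 0.061), and NCAPH lost its call when any 1 array of these 3 groups was left out (0.0566 to 0.164). With the ACTB ratio as a covariate NCAPH had an adjusted p of 0.0639. Both were lost with no filter on low signals (NCAPH 0.0596, FAM83D 0.0695) and with only the compared arrays (0.138 and 0.104), and FAM83D also with arrays centred on their medians (0.0724).

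Against shNTC Dox/DMSO cells, 6 of the 65 genes were called lower, against 2.99% of all genes tested, and 0 higher, against 2.84% (median -0.19). CKAP2L was at -1.73 (adjusted p = 0.000471), FAM83D at -1.09 (0.00939), G2E3, a ubiquitin ligase named for its G2 expression, at -1.05 (0.0173) and KIF20B at -0.89 (0.00481). The other two, named beyond the naming rule, were ERCC6L at -0.76 (0.0342) and DEPDC1 at -0.62 (0.0287). The 4 other probe sets of G2E3 were between -0.46 and 0.036 in this comparison, and the 3 others of DEPDC1 were at -0.71, -0.41 and -0.0085, none of them called. The dim probe set of KIF20B was at 0.25. With the probe sets of a gene averaged, KIF20B was at -0.081 (adjusted p = 0.769), G2E3 at -0.37 (0.274) and DEPDC1 at -0.44 (0.123), so that these 3 calls rested on the brightest probe set. ERCC6L lost its call with no filter (0.0522) and with the ACTB ratio as a covariate (0.0543), and ERCC6L and DEPDC1 with only the compared arrays (0.103 and 0.0814). CKAP2L and, by its bright probe set, KIF20B again stayed called whichever 1 array was left out. Without the second array of shNTC Dox/DMSO cells FAM83D had an adjusted p of 0.0732, G2E3 of 0.112, ERCC6L of 0.151 and DEPDC1 of 0.0699, and 2 of the 65 were called. Without the first array of shHSF1 Dox/HSP990 cells there were 3 calls (G2E3 0.0905, ERCC6L 0.103, DEPDC1 0.125) and without the second there were 3 (FAM83D 0.065, ERCC6L 0.147, DEPDC1 0.134). DEPDC1 was also lost without the first array of shNTC Dox/DMSO cells (0.073), and ERCC6L and DEPDC1 without either array of shNTC DMSO cells (0.0687 to 0.0808). With NVP-HSP990 against DMSO and with Doxycycline alone, 0 of the 65 were called by limma, and 9 and 5 had an unadjusted p under 0.05, against 4.96% and 2.41% of all genes.

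MASTL (Greatwall), the kinase that blocks the phosphatase opposing CDK1, was the only gene called among 31 genes of mitotic entry control and of the anaphase-promoting complex in the knockdown comparison. Called lower was thus 1 of 31, against 1.85% of all genes tested, and called higher were 0, against 0.994%. The signals of MASTL were 74.8 and 90 in shHSF1 Dox/HSP990 cells, 207.4 and 224.8 in shHSF1 HSP990 cells, 193.4 and 271.5 in shNTC Dox/DMSO cells, and 243.7 and 264.7 in shNTC DMSO cells. The first group lay far below the 6 other arrays. The differences were -1.24 (SE 0.20, adjusted p = 0.0106) in the knockdown comparison and -1.32 (adjusted p = 0.00495) against shNTC Dox/DMSO cells. The knockdown call was lost without the first array of shHSF1 Dox/HSP990 cells (adjusted p = 0.0563) and without the second array of shHSF1 HSP990 cells (0.0503), and with only the compared arrays (0.0588). The median of the 31 genes was 0.013 in the knockdown comparison.

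Genes of other cell cycle phases were counted beside these. Of 44 genes of S phase and DNA replication, 1 was called lower and 0 higher in the knockdown comparison, against 1.85% and 0.994% of all genes, with 37 below 0, against 49.8%, and a median of -0.16. The called gene was RPA1, a subunit of the protein that coats single-stranded DNA, at -1.25 (adjusted p = 0.00434). Of 24 genes of G1, 1 was called higher, MYC, a growth factor-induced transcription factor, with 145.1 and 156.2 in shHSF1 Dox/HSP990 cells, against 82.2 and 72.6 in shHSF1 HSP990 cells (0.84, adjusted p = 0.049), and the median of that list was 0.094. The call of MYC was lost when any 1 of the 8 arrays was left out (adjusted p = 0.0505 to 0.232), and with no filter (0.106), arrays centred on their medians (0.0738), only the compared arrays (0.139), 1 added in place of 16 (0.0581), probe sets tested singly (0.0579) or the ACTB ratio as a covariate (0.066), while RPA1 stayed called whichever array was left out. Against shNTC Dox/DMSO cells, 2 of the 24 G1 genes were called higher and 2 lower, against 2.84% and 2.99% of all genes. These were MYC (1.42, adjusted p = 0.00248) and GADD45B, higher, and CDKN1C and CCNG2, lower. In the knockdown comparison the 46 genes at -0.17 stood beside the S phase list at -0.16. The S phase list was also at -0.17 with Doxycycline alone (46 genes -0.10). It was at -0.036 against shNTC Dox/DMSO cells (46 genes -0.17) and at 0.0063 in the interaction (46 genes -0.088). Differences between the lists were not tested.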

How the data were processed

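Expression was measured on 8 HG-U133 Plus2 arrays (Affymetrix) from amplified biotin-labelled cDNA. The deposited values are linear signal intensities, which the authors computed with MAS5 (version not given in the sources used here) and scaled so that each array had a mean of 150 after trimming 2% of probe sets at each end. Probe sets were named through a platform annotation table: 41091 had 1 symbol, 1801 had several, 11721 had none, and 62 were controls. Of those with several, 1 named a gene of the 46 and was left out. Genes were tested when at or above the array median in at least 2 of 8 arrays. The value 16 was added before log2, and limma 3.58.1 in R 4.3.3 fitted the 4 group means over all 8 arrays, with a trend in the variances, in 5 comparisons with Benjamini-Hochberg adjustment over 12672 genes. Of these steps, only the limma fit was tested on simulated data, with planted differences and noise drawn independently for each gene and array. The number of arrays limits the precision.

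The 46 genes, the role groups and the other lists were chosen with earlier results of these data known. Signals in every array are given, by rule, for each called gene and for the member of each role group with the largest knockdown difference and with the highest mean signal; from each other list up to 4 called genes are named. Signals of PLK1, CCNF, CDCA8, KIF23, KIF20A, of genes outside the 46 and of single probe sets were added after their values were seen. Columns of other samples were not present (0 unmapped). Promoters come from RefSeq (GRCh38.p14). Alternatives tried were 1 or 64 in place of 16, no or a stricter filter, quantile normalization, centring on the median, the probe sets of a gene averaged, probe sets tested singly, no variance trend, only the compared arrays, a 2-fold limit, the Student t-test that the study's statistics name, a replicate block, each array left out and the ACTB ratio as a covariate.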

Additional observations from a re-analysis of the deposited data

Results flagged for a closer look

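The rule for a closer look was applied only to the 46 genes, HSF1 and HSPA6. One result met it, because the effect of Doxycycline differed between the 2 hairpin settings by a test of that difference. For HSPA6, the inducible HSP70 gene, the knockdown difference minus the Doxycycline difference of shNTC cells in DMSO was -5.44 on the log2 scale (limma, adjusted p = 0.000172). HSPA6 is not one of the 46 genes, of which 0 passed the same test.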

How the results depend on the processing

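Single results kept their direction and their side of the threshold in 1004 of 1144 combinations of 50 results and an alternative, and 112 lost the call, 25 gained one and 3 changed sign. The 3 were the knockdown differences of CCNB1, 0.027 with the ACTB ratio as a covariate, and of UBE2S, which ranged between -0.093 and 1.15 with 1 array left out and was -0.093 without the second array of shHSF1 Dox/HSP990 cells and -0.060 without the first of shHSF1 HSP990 cells. In the knockdown comparison 0 of the 46 genes were called lower with no filter, centring on the median, the probe sets of a gene averaged, no variance trend, a 2-fold limit, only the compared arrays, or the t-test after adjustment. There were 3 with quantile normalization (KIF14, CCNB2 and NUSAP1, adjusted p = 0.0135, 0.0304 and 0.0243), 2 with probe sets tested singly and 8 by the unadjusted t-test (2 higher), and with 1 array left out 0 to 3. Against shNTC Dox/DMSO cells, 3 were called lower with quantile normalization, 2 with probe sets averaged or tested singly, 0 with a 2-fold limit or the adjusted t-test, 4 by the unadjusted t-test (1 higher), and 0 to 6 with 1 array left out. The unadjusted t-test called 2 lower with NVP-HSP990 and 1 lower with Doxycycline alone. Medians of the 46 genes with 1 array left out ranged from -0.33 to -0.081 against shNTC Dox/DMSO cells, from -0.22 to 0.058 for Doxycycline alone and from -0.26 to 0.059 for the difference between the Doxycycline effects. Of the 65 further genes, the knockdown comparison called 2 with no filter or only the compared arrays, 1 with a 2-fold limit, 13 by the unadjusted and 0 by the adjusted t-test, and 2 to 4 with 1 array left out; against shNTC Dox/DMSO cells it was 3, 10 and 0 for the last 3 settings and 2 to 8 with 1 array left out. Of all genes tested, 360 were called in the knockdown comparison, against 221 with no filter, 207 with a 2-fold limit, 95 with only the compared arrays, 752 with the replicate block, 1413 by the unadjusted and 0 by the adjusted t-test, and 739 were called against shNTC Dox/DMSO cells, with 450 (no filter), 356 (2-fold limit), 1237 (block), 1335 and 0 (t-test). With NVP-HSP990, 28 were called (16 with no filter, 44 with the block, 699 and 0 by the t-test), with Doxycycline alone 0 (588 by the unadjusted t-test), and in the difference between the Doxycycline effects 100 (59 with no filter, 279 with the block, 33 with the ACTB covariate). The causes were not tested.

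The titles mark the second array of each group as a repeat, and no label says whether arrays with the same replicate number were handled together. A pairing by that number is therefore possible, and the main fit did not include it. With 2 pairs a comparison, the deviations of same-numbered arrays correlated over all genes tested at 0.68 (knockdown), 0.28 (inhibitor), 0.016 (against shNTC Dox/DMSO cells) and 0.46 (Doxycycline alone). Over the 46 genes these correlations were 0.80, 0.14, -0.39 and 0.68, in the same order. With the replicate number as a block, 3 of the 46 genes were called lower in the knockdown comparison (KIF14, CCNB2 and KIF20A, adjusted p = 0.0089, 0.043 and 0.0262), 2 against shNTC Dox/DMSO cells (KIF14 and KIF20A, 0.00442 and 0.0432), and 1, KIF14, in the difference between the Doxycycline effects (adjusted p = 0.0429). Of the further list, 7 were called in the knockdown comparison with the block.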
